A study of Mus musculus with 6 samples.

Results

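Coding-exon intervals away from transcription start sites (TSSs) were those ATAC-seq intervals of mouse muscle nuclei that lay more than 1 kb from every annotated TSS and overlapped at least 1 bp of the coding sequence of a protein-coding gene on an autosome. By this rule, applied with the GENCODE vM1 annotation of mm9, 437 of the 39768 intervals were members (1.1%), in 346 genes. ATAC-seq uses the Tn5 transposase to insert adapters into exposed DNA, so that the count of fragment ends in an interval measures how accessible its chromatin is. The study inactivated both genes of the histone variant H2A.Z in post-mitotic muscle fibres and asked, by this assay, whether the accessibility of chromatin depends on the variant. There were 3 control (CTL) libraries, labelled WT, from mice on the C57BL/6N background of genotype H2A.Z-1 flox/flox and H2A.Z-2 flox/flox without Cre. A further 3 libraries, labelled H2A.Z dKO and called dKO libraries here after that label, came from mice with both floxed alleles and the HSA-Cre transgene, which the human α-skeletal actin promoter drives in skeletal muscle fibres. All mice were 7 weeks old and each library was made from 50000 nuclei. The labels name tibialis anterior muscle, whereas the methods of the study speak of hind limb muscles. Nuclei of other cell types keep both H2A.Z genes in both groups, and in such bulk nuclei fewer accessible cells and less accessibility per cell cannot be told apart.

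Most accessible chromatin of a mammalian genome lies at promoters and at enhancers, and enhancers usually lie in introns or between genes. Exons are generally occupied by nucleosomes, and accessible sites within them can belong to enhancers, internal promoters or binding sites of factors such as CTCF, so that a coding base may also be part of a regulatory element. H2A.Z is a variant of histone H2A that is enriched in the nucleosomes next to active TSSs and is also found at enhancers.

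The sequences of 10 members, from the mm9 genome and read 5′ to 3′ on the strand of the gene, show how the intervals lie on coding DNA. In the first set, capitals mark the coding bases, and the lower-case bases are intronic. Of these members, Rad18, Crlf2, C2cd3 and Zfhx4 are among those with the smallest p of the comparison between groups, and Atp2a1 encodes the calcium pump of the sarcoplasmic reticulum of fast muscle fibres.
Rad18 (chr6:112636616-112636737, minus strand): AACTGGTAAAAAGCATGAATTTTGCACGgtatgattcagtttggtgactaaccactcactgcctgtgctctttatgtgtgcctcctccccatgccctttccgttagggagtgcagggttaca
Crlf2 (chr5:109986158-109986239, minus strand): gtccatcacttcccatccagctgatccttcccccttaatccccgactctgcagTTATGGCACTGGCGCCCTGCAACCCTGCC
C2cd3 (chr7:107548244-107548326, plus strand): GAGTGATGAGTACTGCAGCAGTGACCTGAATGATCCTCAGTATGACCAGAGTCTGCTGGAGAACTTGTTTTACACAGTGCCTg
Zfhx4 (chr3:5245182-5245236, plus strand): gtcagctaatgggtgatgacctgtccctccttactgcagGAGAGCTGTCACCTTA
Atp2a1 (chr7:133602872-133603099, minus strand): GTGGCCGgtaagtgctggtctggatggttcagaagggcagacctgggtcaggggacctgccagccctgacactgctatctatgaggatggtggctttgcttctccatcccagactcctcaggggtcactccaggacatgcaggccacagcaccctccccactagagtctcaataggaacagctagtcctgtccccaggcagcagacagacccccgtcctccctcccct
The interval of C2cd3 held 82 coding bases of 83, whereas that of Atp2a1 held 7 of 228 and was otherwise intronic.

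A second set shows members that lay wholly in 1 coding exon, with the dinucleotide CG in capitals. Dapk3 is among the most accessible members, and Chd7, Ttc18 and Kif1b are among those with the smallest p.
Dapk3 (chr10:80655431-80655604, plus strand): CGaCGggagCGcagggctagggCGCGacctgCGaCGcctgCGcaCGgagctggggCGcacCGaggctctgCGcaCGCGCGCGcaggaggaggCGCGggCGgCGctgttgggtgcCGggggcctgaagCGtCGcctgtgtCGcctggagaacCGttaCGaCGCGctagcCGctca
Chd7 (chr4:8793157-8793233, plus strand): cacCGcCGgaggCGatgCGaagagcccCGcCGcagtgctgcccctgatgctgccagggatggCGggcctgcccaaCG
Ttc18 (chr14:21251191-21251222, minus strand): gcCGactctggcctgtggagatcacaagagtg
Kif1b (chr4:148556454-148556471, minus strand): cagatCGtcccaactgtg
The number of CG dinucleotides ran from 29 in the 174 bp of Dapk3 and 8 in the 77 bp of Chd7 to 1 each in Ttc18 and Kif1b.

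A last member, also wholly coding, belongs to a sarcomere gene, and capitals mark a short form of the core of the CTCF motif.
Synpo2l (chr14:21480245-21480505, minus strand): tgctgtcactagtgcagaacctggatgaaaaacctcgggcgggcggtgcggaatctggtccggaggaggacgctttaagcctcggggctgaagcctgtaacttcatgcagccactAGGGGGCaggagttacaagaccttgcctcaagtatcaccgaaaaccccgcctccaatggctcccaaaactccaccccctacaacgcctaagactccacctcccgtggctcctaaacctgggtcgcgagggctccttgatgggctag
Synpo2l encodes an actin-binding protein of the Z-disc.

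Libraries held between 3520008 and 6117245 counts in all intervals, of which the members took 24810 to 43350. A median member had 49.2 counts per library, and 306 of the 437 (70%) had at least 20 counts in every library. Between the loxP sites of H2afz, which encodes H2A.Z-1, the 2 intervals were intronic and gave 12.4 ± 2.8 CPM (counts per 1000000 in all intervals) in CTL and 11.3 ± 1.52 in the dKO libraries (SD, n = 3, exact permutation test with a two-sided p of 0.6), so the counts do not separate the genotypes and every direction below rests on the labels. No member lay in the 16 genes listed for H2A.Z and its exchange, a list that leaves out Ino80c, a subunit of INO80, which held a member. Of 15 muscle fibre markers, 11 had an interval within 1 kb of a TSS, against 7 of 15 endothelial, 4 of 11 fibroblast, 4 of 8 Schwann cell, 4 of 8 smooth muscle and pericyte, 3 of 8 satellite cell, 0 of 14 macrophage and 0 of 5 adipocyte markers. In dKO replicate 1 intervals away from TSSs took a lower share of the counts than in the other libraries, and the median log2 deviation of the members from their mean over libraries was -0.086 there, 0.083 and 0.03 in dKO replicates 2 and 3, and 0.028, -0.045 and 0.018 in CTL replicates 1, 2 and 3.

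Most members lay on internal coding exons, and last coding exons held a larger share of them than of annotated exons. By the transcript that each interval overlapped most, 271 members (62%) lay on an internal coding exon, 129 (29.5%) on the last coding exon, 21 (4.81%) on the first and 16 (3.66%) on the only coding exon of the transcript. For comparison, the annotation holds 142563 coding exons more than 1 kb from every TSS on autosomes (1 transcript per gene, that with the longest coding sequence), of which 86.4% are internal, 10.9% last, 2.23% first and 0.45% single coding exons. Last coding exons hold 17.9% of the coding bases of these exons. Members touched 342 of these exons (0.24%), or 0.187% of the internal, 0.408% of the first, 0.591% of the last and 1.09% of the single coding exons. Exons touched were longer than usual, with a median of 176 coding bp against 126 in all of them. The share touched was 0.128% of exons with up to 100 coding bp and 1.62% of those with over 1000.

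Edges of the intervals did not follow the edges of exons. There were 180 members (41.2%) wholly in 1 coding exon, 38 within an exon but partly untranslated, 117 that ran past the 3′ end of the exon only, 76 past its 5′ end only and 26 past both. Both edges lay within 10 bp of the exon edges in 2 of the 437. At the exon ends crossed, the next intronic bases were GT in 137 of 140 members and the preceding ones AG in 102 of 102, as splice sites have, a property of the annotated exons on this genome and not of the interval positions. At least 50% of the interval was coding in 260 members, while 34 held fewer than 10 coding bases. Overlapping intervals were frequent, so that the 437 members formed 397 separate loci and 74 members shared bases, and hence counts, with another.

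Distances to the nearest TSS ran from 1007 bp, at Pitx3, to 347585 bp, at Sox6, with a median of 5859 bp. The nearest TSS belonged to the same gene for 305 members and to another gene for 132. Just inside the limit of 1 kb, the members at 1007, 1014 and 1017 bp had mean RPKM of 128, 90 and 86.4, and just outside it coding intervals at 999, 984 and 972 bp had 187, 92.7 and 127. RPKM here are counts per kb of interval and per 1000000 counts in all intervals of the library. RefSeq (GRCm38.p6) places a TSS that GENCODE vM1 lacks within 1 kb of 17 members, among them those of Psmc2, a subunit of the proteasome, and of Pnpla6, a phospholipase.

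Coding-exon intervals stood between introns and promoters in base composition. In windows from 100 bp before to 100 bp after the midpoint the median GC content was 58.7%, against 52.7% in 8252 intronic intervals more than 1 kb from TSSs and 65.2% in the 20471 intervals within 1 kb of a TSS. The ratio of observed to expected CpG had a median of 0.456, against 0.223 and 0.801. CpG-rich windows, with a ratio of at least 0.6 and a GC content of at least 50%, made up 34.3% of the members (150), 4.05% of intronic intervals and 73.1% of those near TSSs. Among all the annotated coding exons away from TSSs, 4.93% were CpG-rich, and members touched 1.62% of these and 0.168% of the others. Within the members, the share was 22.1% on internal, 51.9% on last, 61.9% on first and 62.5% on single coding exons.

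Short motif forms were counted in these windows on both strands, as a description of the sequence. The CTCF core forms AGGGGGC and AGGTGGC occurred in 12.8% and 11.7% of the members, against 6.5% and 7.74% of intronic windows and 9.94% and 6.38% of all windows, and 5 members held both forms. A window could hold several of the forms searched, also overlapping ones. The E-box form CAGCTG, which muscle regulatory factors bind among others, occurred in 29.1% of members, 25.1% of introns and 17.6% of all windows. TGANTCA, the AP-1 site, was rarer in members (7.78%) than in introns (12.5%), and 7.52% of all windows held it. CTAAAAATA, a form of the MEF2 site, was found in 0 members, 2.27% of introns and 1.1% of all windows, and the ETS form CCGGAAG in 4.58%, 1.68% and 7.32%. GCATGCGC, a part of the NRF1 site, was in 1.6% of members, 0.582% of introns and 2.19% of all windows.
With either CTCF form, 102 members had a median of 114 ± 6.88 RPKM in CTL and 115 ± 13.7 in the dKO libraries (SD, n = 3). The other 335 had 97.7 ± 5.88 and 99.1 ± 9.36, with median widths of 127 bp against 66.5 bp in those with a form.

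**Figure D1:**
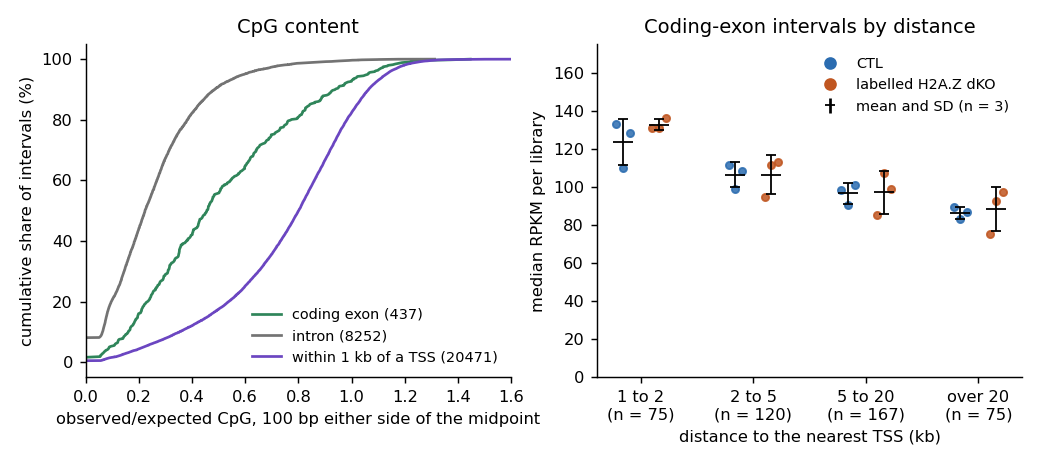
Left, cumulative share of intervals (%) by the ratio of observed to expected CpG within 100 bp of the midpoint, for coding-exon, intronic and TSS-proximal intervals. Right, the median RPKM of the coding-exon intervals in each library by distance to the nearest TSS in kb, with the mean and SD of 3 libraries (bars), which goes from 124 at 1 to 2 kb to 86.4 beyond 20 kb in CTL.

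Accessibility of the members was close to that of introns and below that of promoters. Their median RPKM was 103, 93.7 and 103 in CTL replicates 1, 2 and 3 and 90.1, 110 and 104 in dKO replicates 1, 2 and 3. Group means of these medians were 100 ± 5.53 RPKM in CTL and 101 ± 10.3 in the dKO libraries (SD, n = 3), and the groups overlapped. Intronic intervals had 98.3 ± 1.18 and 99.1 ± 12.9, exonic intervals with no coding base 108 ± 1.82 and 107 ± 15.6, intergenic ones 99.4 ± 0.254 and 99.8 ± 10.6, and those within 1 kb of a TSS 134 ± 0.282 and 134 ± 3.84.
The log2 ratio of the members' median to the intronic median averaged 0.031 ± 0.056 (SD, n = 6 libraries) and was positive in 4 of 6, which an exact sign-flip permutation test did not separate from 0 (two-sided p = 0.25, where 0.031 is the smallest possible). Since the authors counted ends extended to 37 bp, the width of a narrow interval understates the stretch that its counts come from. Members of up to 40 bp had a median of 147 RPKM and those of 140 to 250 bp 89, and the members were wider than the introns (medians of 108 and 85 bp). With 36 bp added to every width, an alternative chosen after seeing the data, the ratio was 0.12 ± 0.027 and positive in every library (exact sign-flip permutation test, two-sided p = 0.031). Within 5 classes of width the ratio without the added width averaged 0.0047 to 0.14 and was positive in every library in 3 of them. Within CpG-rich intervals the ratio with the added width was 0.021 ± 0.058 (exact permutation p = 0.375), and within the others it was 0.022 ± 0.028 (exact permutation p = 0.156).

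**Figure D2:**
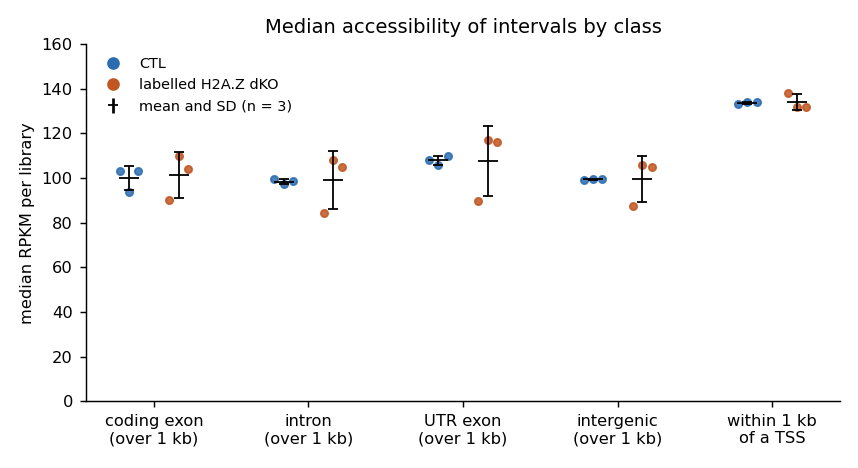
Median RPKM of the intervals of each class in each library (points), with the mean and SD of 3 libraries (bars). Coding-exon intervals sit at 90.1 to 110, close to the intronic ones at 84.3 to 108 and the intergenic ones at 87.6 to 106, and below the intervals within 1 kb of a TSS at 132 to 138.

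Among the members, levels were higher close to TSSs and in CpG-rich windows. The 75 members at 1 to 2 kb had a median of 124 ± 12.1 RPKM (SD, n = 3) in CTL, the 120 at 2 to 5 kb 106 ± 6.53, the 167 at 5 to 20 kb 96.4 ± 5.49 and the 75 beyond 20 kb 86.4 ± 3.14. The dKO libraries showed this order too, at 133 ± 2.97, 106 ± 10.2, 96.9 ± 10.9 and 88.3 ± 11.6, where the neighbouring classes from 2 kb outward overlapped in their spread. In CTL the first 3 classes overlapped with their neighbours in this way. The share of CpG-rich windows went from 62.7% at 1 to 2 kb to 14.7% beyond 20 kb, and its part in the levels was not tested. CpG-rich members had medians of 111 ± 5.21 RPKM in CTL and 115 ± 3.32 in the dKO libraries (SD, n = 3), and the others 96.2 ± 5.87 and 95.9 ± 12.1. By position in the transcript the CTL medians overlapped in their spread, at 104 ± 3.85 on first, 99 ± 5.68 on internal, 102 ± 7.39 on last and 98.3 ± 9.04 on single coding exons. In the dKO libraries they were 121 ± 9.4, 100 ± 11.1, 107 ± 7.53 and 98.7 ± 16.4, where first and internal coding exons, 21 and 271 members, did not overlap in their spread. That spread is between libraries and does not measure the spread among members. Members on first coding exons lay at a median of 1497 bp from a TSS and those on internal ones at 7608 bp. The part of this distance was not tested.

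Single members spread from 40 to 303 mean RPKM over the 6 libraries, with 80% of them between 68.1 and 170.
By the width of the interval alone, the member of highest mean RPKM with at least 20 counts in every library was a 43-bp interval in the coding exon 2 of 3 of 1700020L24Rik on chromosome 11. It had 304, 296 and 231 RPKM in CTL replicates 1, 2 and 3 and 273, 317 and 222 in dKO replicates 1, 2 and 3. These values overlapped fully between groups, with means of 277 ± 40 and 271 ± 47.3 (SD, n = 3).
Next came 1200009I06Rik on chromosome 12, at 237 ± 64.6 and 263 ± 22.9 RPKM in CTL and in the dKO libraries. Bcat2, the mitochondrial aminotransferase of branched-chain amino acids, had an interval of 411 bp over its last coding exon with 275, 258 and 265 RPKM in CTL and 196, 261 and 245 in the dKO libraries, of which replicate 1 was the lowest. Dapk3, a serine/threonine kinase that acts on myosin light chains, had 272, 197 and 278 RPKM in CTL and 289, 255 and 197 in the dKO libraries, so that each group had 1 library at 197. The widest member, 866 bp over the last exon of Clec11a, which encodes a secreted lectin, carried the most counts, from 714 to 1426 per library, at 230 ± 5.77 and 227 ± 46.5 RPKM. Synpo (synaptopodin, an actin-associated protein) had 219 ± 13.3 and 235 ± 31.1, Zfp503 (a zinc finger protein) 215 ± 19.7 and 235 ± 59.9, and Acvrl1 (a receptor of the TGF-β family known from endothelium) 216 ± 19.4 and 230 ± 82.2.
In Clec11a, Synpo, Zfp503 and Acvrl1, dKO replicate 1 was the highest of the 6 libraries, at 280, 271, 304 and 322 RPKM.
The order of the members by RPKM depended on the width used. With 36 bp added to every width, which was tried after seeing the data, Bcat2, Clec11a and Dapk3 led with mean RPKM of 230, 220 and 205 over the 6 libraries, while 1700020L24Rik went from 274 to 149, 1200009I06Rik from 250 to 120 and Zfp503 from 225 to 114.

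**Figure D3:**
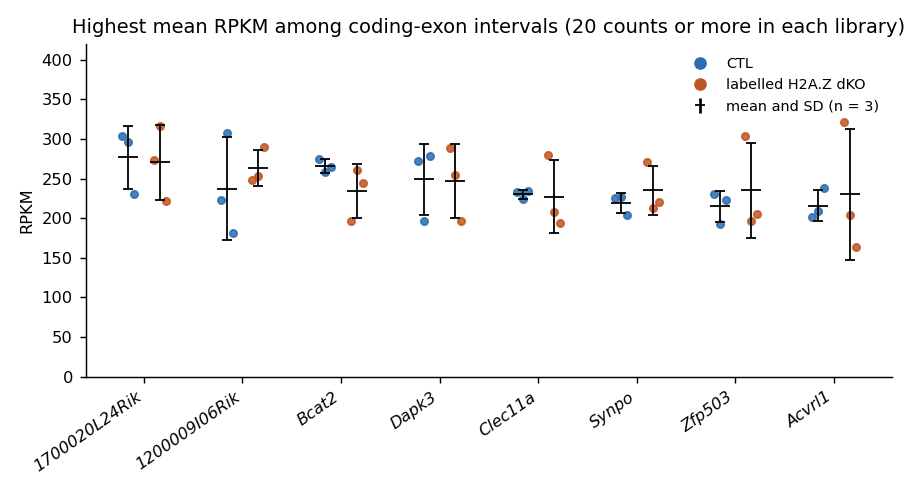
RPKM in each library (points) of the 8 coding-exon intervals with the highest mean RPKM among those with at least 20 counts in every library, with the mean and SD of 3 libraries per group (bars). The groups overlap in all 8, and the dKO libraries spread from 164 to 322 at Acvrl1.

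After Clec11a the widest members were 624 bp at Prdm2, which encodes a zinc finger histone methyltransferase, and 498 bp at Trim14, which encodes a protein of innate immune signalling. They had 163 ± 14.6 and 145 ± 15.7 RPKM in CTL and 172 ± 12.4 and 141 ± 7.31 in the dKO libraries (SD, n = 3). By the width of the interval alone, the highest mean RPKM of the 180 wholly coding members belonged to narrow intervals. These were 11 bp in Smtn (smoothelin) and 19 bp in Hexim1 (an inhibitor of the elongation factor P-TEFb). Then came 17 bp in Trim8 (a ubiquitin ligase) and the 43 bp in 1700020L24Rik. This order also depends on the width used. With 36 bp added, tried after seeing the data, 1700020L24Rik had 149 and Dapk3, also wholly coding, 205 mean RPKM. Hexim1 had 215, 284 and 224 RPKM in CTL and 448, 312 and 325 in the dKO libraries, without overlap (log2 fold change 0.60, adjusted p = 0.972 from edgeR). Smtn had 312 ± 38.9 and 294 ± 5.03 RPKM, from 13 to 19 counts per library, and Trim8 262 ± 96 and 304 ± 6.57.

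Several members fell in 1 gene in 78 of the 346 genes, of which 67 had 2, 9 had 3 and 2 had 4. The 4 members of Crlf2, a subunit of the receptor for thymic stromal lymphopoietin, were separate, and they had mean RPKM of 135 to 174. The 4 members of Pik3ca, the catalytic subunit p110α of phosphoinositide 3-kinase, were overlapping forms of 1 locus over coding exon 15 of 20, and all had 87.3 to 87.9. Among genes with 3, those with the highest member by interval width alone were 1700020L24Rik, Rinl and 2310014H01Rik, with mean RPKM of 143 to 274, 108 to 259 and 101 to 167.
In 2310014H01Rik all 3 members, at 2 separate loci of its last coding exon, had lower values in the dKO libraries. At 1 of these loci the members overlapped and shared counts, so the 3 are not independent. All 3 are among the 13 members lower at an unadjusted p under 0.05 from edgeR. The member of highest mean RPKM had 32, 25 and 17 counts in CTL against 22, 16 and 17 in the dKO libraries, whose RPKM did not overlap (log2 fold change -0.54, standard error 0.26, adjusted p = 0.972 from edgeR).

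Between the groups no member passed the test. At an adjusted p below 0.05 (quasi-likelihood test of edgeR, Benjamini-Hochberg method across the whole table) there were 0 of the 437 members, and 0 of all 39768 intervals (0%), and DESeq2 and limma voom gave 0 members as well. The smallest adjusted p of a member was 0.972.
At an unadjusted p under 0.05, edgeR had 16 members (3.66%) higher in the dKO libraries, beside 2.64% of all intervals, and 13 (2.97%) lower, beside 2.31%. DESeq2 had 5 and 4 such members, and limma voom 16 and 10. RPKM of the groups did not overlap in 48 members (11%), 30 higher and 18 lower, beside 10.6% of all intervals. These shares are close to the background of all intervals.
The median log2 fold change of the members was 0.009, beside 0.012 over all intervals and 0.022 in introns, and 224 of the 437 were positive. Members took 0.709%, 0.676% and 0.705% of the counts in CTL replicates 1, 2 and 3 and 0.668%, 0.721% and 0.706% in dKO replicates 1, 2 and 3, and the groups overlapped. The means were 0.696% ± 0.0181 and 0.698% ± 0.0271 (SD, n = 3), and an exact two-sided permutation test gave p = 0.9, with 0.1 as the smallest value that 3 libraries in each group allow.
The precision of single members was limited, with a median half-width of the 95% confidence interval of 0.48 on the log2 scale, against 0.45 over all intervals. For 393 members (89.9%) this interval lay within a 2-fold change in either direction, and for 39.8% within a 1.5-fold change. On simulated counts for all 39768 intervals the test recovered 67.4% of 2-fold changes and 18.5% of 1.5-fold changes, with a mean of 8.33 false calls. Recovery among the members alone was not simulated. A median member had 49.2 counts per library, against 67.3 over all intervals.

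**Figure D4:**
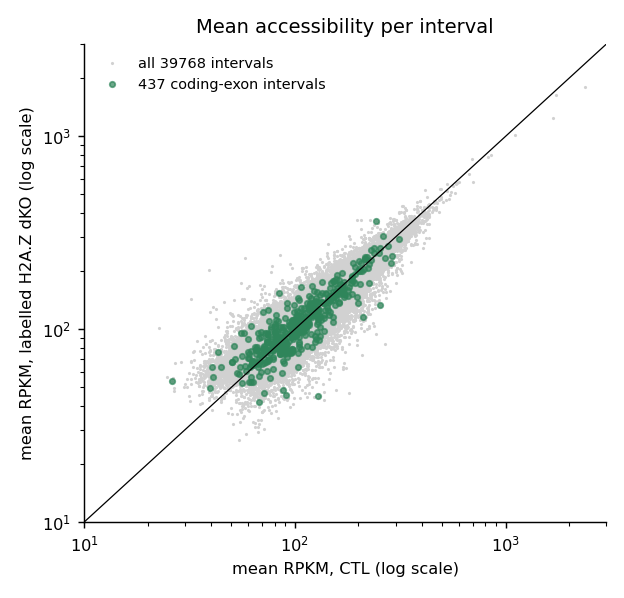
Mean RPKM of each interval in the 3 dKO libraries against that in the 3 CTL libraries, both on log scales, with the line of equal values. The 437 coding-exon intervals (green) lie along the line within the cloud of all 39768 intervals (grey).

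The 8 members with the smallest p in either direction had between 1 and 86 counts per library. Rad18, a ubiquitin ligase of the response to DNA damage, had 14, 18 and 12 counts in the CTL libraries, replicates 1 to 3 in order, against 27, 36 and 36 in dKO replicates 1, 2 and 3, at the interval shown above with its splice donor. Its RPKM were 26.2 ± 6.73 and 53.8 ± 14.3 (SD, n = 3), without overlap (log2 fold change 1.05, standard error 0.29, unadjusted p = 0.00157, adjusted p = 0.972 from edgeR).
Chd7, a chromatin remodeller, had 27, 17 and 18 counts in CTL against 36, 35 and 42 in the dKO libraries, in its last coding exon (log2 fold change 0.75, standard error 0.25, adjusted p = 0.972 from edgeR). A neighbouring member of 83 bp in that exon, chosen here after its values were seen, had 62.3 ± 9.93 and 67.4 ± 10.4 RPKM. Ttc18, a tetratricopeptide repeat protein, had 19, 10 and 10 counts in CTL against 29, 27 and 19 in the dKO libraries. Crlf2 had 62, 37 and 29 counts and 86, 55 and 70 in its interval of this group, and the log2 fold changes of Ttc18 and Crlf2 were 0.83 and 0.61 with standard errors of 0.29 and 0.21. The other 3 members of Crlf2, 1 of them on the same coding exon, had log2 fold changes of -0.26, -0.078 and -0.11.
On the lower side, C2cd3, a protein of centriole assembly, had 38, 32 and 31 counts in CTL against 21, 21 and 19 in the dKO libraries. Its RPKM were 88.1 ± 16.2 and 48.1 ± 6.63 (SD, n = 3), without overlap (log2 fold change -0.85, standard error 0.25, adjusted p = 0.972 from edgeR).
Kif1b, a kinesin motor, had 9, 15 and 8 counts against 1, 4 and 7 over 18 bp, so that its log2 fold change of -1.50 (standard error 0.49) rests on few fragment ends. Zfhx4, a zinc finger homeobox protein, had 30, 20 and 20 counts against 22, 9 and 9, and Rab6b, a small GTPase of the Golgi, 43, 54 and 40 against 26, 34 and 34, where the RPKM of the groups overlapped only at Rab6b.
Of the 16 members on the higher side the authors list 15 as peaks of H2A.Z dKO only, and of the 13 on the lower side 11 as peaks of CTL only. That listing was made from these libraries and is not independent of the counts. Among all members it names 240 for H2A.Z dKO only, 118 for both groups and 79 for CTL only, or 54.9%, 27% and 18.1%, beside 43.4%, 38.7% and 17.9% of all intervals. The other classes away from TSSs had shares like those of the members. In the same order these were 59.4%, 20.5% and 20.1% in introns and 53.8%, 25.7% and 20.4% in intergenic intervals. Exonic intervals with no coding base had 57.3%, 25.3% and 17.4%, and intervals within 1 kb of a TSS 31.6%, 52.4% and 16%.

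**Figure D5:**
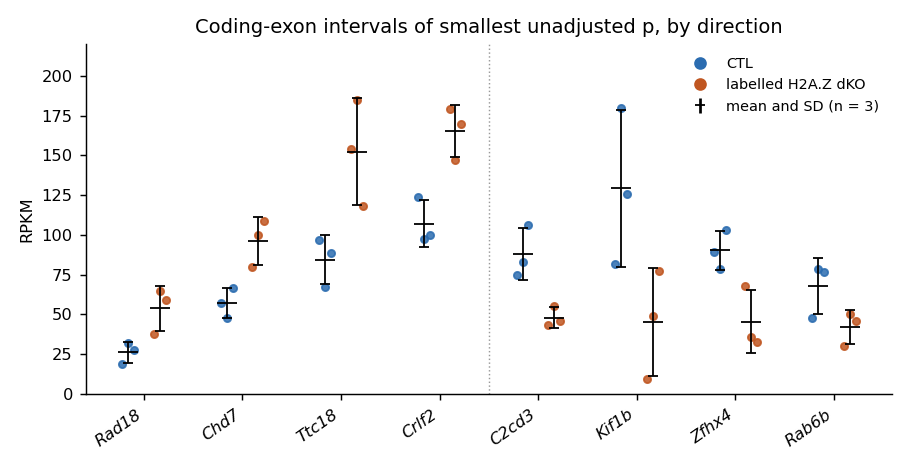
RPKM in each library (points) of the 4 coding-exon intervals with the smallest unadjusted p in each direction, with the mean and SD of 3 libraries per group (bars). The groups are apart in all but Rab6b, while no adjusted p was below 0.972.

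Members lay in some genes of muscle contraction. Of 58 sarcomere genes 5 (8.62%) had one, beside 346 of the 21294 autosomal protein-coding genes (1.62%), a difference that was not tested. These were 6 members in all, 5 of them with a positive log2 fold change and none past the test. The Z-disc gene Synpo2l, whose interval was shown above, had 189, 211 and 222 RPKM in CTL and 190, 227 and 180 in the dKO libraries, with full overlap. Nrap, a nebulin-related anchoring protein, had 114 ± 43.1 and 137 ± 6.88 RPKM (SD, n = 3). Neb (nebulin, the ruler of the thin filament) had 71.5 ± 34.7 and 81.6 ± 30.9, in coding exon 70 of 155.
Of 28 genes of excitation-contraction coupling 2 (7.14%) had a member. Atp2a1 had 194, 153 and 212 RPKM in CTL and 178, 208 and 179 in the dKO libraries, and Kcna7, a potassium channel of skeletal muscle, 102 ± 19.1 and 107 ± 21.6 (SD, n = 3). None of 27 genes of muscle energy metabolism and none of 163 genes of translation had one.

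Members in genes of transcription factors and chromatin regulators had levels on both sides of the median of 101 mean RPKM over all members, from 58.2 to 109 in the list of chromatin regulators and from 66.1 to 252 in that of C2H2 zinc finger genes. These lists were drawn up by symbol and do not hold every gene of a class. Outside them lay, for example, Hic1, Zeb1 and Zfhx4 (zinc fingers), Rax and Prox2 (homeobox) and Jmjd1c (a histone demethylase), chosen here after their values were seen. Of 30 muscle transcription factors, Pitx3, a homeobox factor of myogenic cells, had 127 ± 30.4 and 128 ± 13.6 RPKM (SD, n = 3). Sox6, a repressor of slow fibre genes, had 117, 90.7 and 101 RPKM in CTL and 73, 76.5 and 76.5 in the dKO libraries, without overlap (log2 fold change -0.46, standard error 0.21, adjusted p = 0.972 from edgeR). Prrx1, a limb mesenchyme factor, was the 1 gene with a member among the 63 of the list of Hox and limb genes, at 102 ± 10.9 and 124 ± 21.7.
The list of C2H2 zinc finger genes held 9 members in 7 of 465 genes, none past the test and 6 with a positive log2 fold change. By interval width alone, the highest beside Zfp503 were Klf4, a factor of pluripotency and vessel walls, at 284 ± 4.46 and 220 ± 45 RPKM over 17 bp (log2 fold change -0.36, adjusted p = 0.972 from edgeR), and Zfp703 at 168 ± 8.82 and 196 ± 19.4. Narrow intervals fall in this order with 36 bp added to every width, as Zfp503 did, from 225 to 114 mean RPKM. The order of the list at that width is not given here. The list of chromatin regulators held 5 members in 4 of 131 genes, including Chd7, with Ino80c, a subunit of the INO80 remodeller, at 130 ± 25.3 and 87.7 ± 42.8 and Chd2, another remodeller, at 77 ± 10.8 and 87.1 ± 11.5.

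Genes of cell surfaces, the matrix and signalling made up the remaining groups. Extracellular matrix genes held 7 members in 6 of 79 genes, of which 5 had a positive log2 fold change and 2 an unadjusted p under 0.05, both of them higher, beside the 2.64% of all intervals given above. Col6a3, a chain of collagen VI that fibroblasts make, had 116, 123 and 116 RPKM in CTL and 156, 151 and 129 in the dKO libraries, without overlap (log2 fold change 0.30, standard error 0.13, adjusted p = 0.972 from edgeR). Thbs4, a thrombospondin of tendon and muscle, had 75.6 ± 11.9 and 110 ± 26.8 RPKM, and Lama5, a laminin chain, 118 ± 40.3 and 136 ± 45.9. Fibroblast markers at promoters summed to 77.2 to 94.8 CPM in CTL and 93.6 to 100 in the dKO libraries, over 4 of 11 genes with an interval, and Dcn, Lum and Col6a3 had none there. The part of these cells in the values of Col6a3 was not tested.
Cadherin genes held 4 members in 3 of 70 genes. Celsr3, a planar polarity cadherin, had 179 ± 13 and 160 ± 34.5 RPKM (SD, n = 3), and the higher of the members of Fat2, an atypical cadherin, had 68.7 ± 10.9 and 96.3 ± 19.2, without overlap and with a log2 fold change of 0.46 (adjusted p = 0.972 from edgeR). The other member of Fat2, in the same exon, had 72.5 ± 17.7 and 79 ± 18.1, with overlap and a log2 fold change of 0.083.
The Notch pathway held 5 members in 3 of 17 genes, none past the test. Hey1, a repressor that Notch induces, had a pair of narrow members in its last coding exon at 152 ± 59.7 and 177 ± 26 RPKM and at 148 ± 6.66 and 174 ± 29.3 (SD, n = 3). Notch3, a receptor of vascular smooth muscle, had 109 ± 15.4 and 105 ± 11.7 and, in the same exon, 93.8 ± 14.9 and 75.1 ± 23.7.
Single markers of other cell types also held members. Tek, the angiopoietin receptor of endothelium, had 74.7 ± 7.81 and 68 ± 9.58 RPKM (SD, n = 3), with overlap. Endothelial markers at promoters had an interval in 7 of 15 genes. Their sums were 121 to 136 CPM in CTL and 106 to 113 in the dKO libraries, and lay apart. The sums overlapped for muscle fibre (737 to 907 and 742 to 966), satellite cell (145 to 170 and 158 to 183) and Schwann cell markers (227 to 241 and 230 to 237). Fibroblast markers overlapped too, as did smooth muscle and pericyte markers (61.9 to 66.1 and 60.3 to 68.1). Among all single intervals, RPKM of the groups did not overlap in 10.6%. The part of endothelial cells in the values of Tek was not tested. The values of Sfpi1 and Plin1 overlapped too. Sfpi1, the myeloid factor PU.1, had 114 ± 18.2 and 104 ± 32.4, and Plin1, perilipin of adipocytes, 44.5 ± 11.3 and 63.7 ± 13.6 (SD, n = 3). Satellite cell and Schwann cell markers had 0 members.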

How the data were processed

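By the methods and processing notes, reads were trimmed (Trimmomatic), aligned to mm9 (Bowtie2) and cleared of duplicates (Picard), and peaks were called (MACS2) on ends moved to the centre of the Tn5 event. The authors merged the peaks of both groups and deposited the count of 37-bp extended ends per interval and library, without normalization. A deposited column lists the group of each peak. Columns of the authors' DESeq2 comparison (fold changes and p-values) entered no result. Their fold changes served only to check the matching of the count columns, and 0 intervals differed from the DESeq2 alternative run here. Starts were read as 0-based, which 1 base decides: read as given they make 439 members. All 6 count columns were matched by name, with 0 left over.

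Annotation was GENCODE vM1 on the mm9 sequence, and sequences came from that genome. Members and gene lists were chosen with earlier results of these data known. Named were the 8 members of highest mean RPKM among those of 20 or more counts in each library, the 4 of smallest p on either side, the 5 genes with the most members (ties by highest RPKM), the 3 widest, the 4 highest wholly coding ones and up to 3 per list.

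Counts of all 39768 intervals were tested with edgeR 4.0.16 in R 4.3.3 (TMM factors 0.971 to 1.02, robust quasi-likelihood test, Benjamini-Hochberg adjustment), after a trial on simulated data. Standard errors are the log2 fold change over the root of F. Nothing in the labels says whether the replicates are separate animals, so p-values measure the spread between these libraries, and intervals cover counting error and that spread, not PCR copies. Same-numbered libraries did not deviate together (correlations of -0.0977, -0.053 and -0.0323). Alternatives were DESeq2, limma voom, other scalings, a count filter, a replicate block, other membership rules and each library left out, with added ones named as such. Not analysed here were the other assays. A member that the rule names among the sarcomere genes is not reported here.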

Additional observations from a re-analysis of the deposited data

How the results depend on the processing

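The count of members past an adjusted p of 0.05 was 0 under all 16 alternatives, with a smallest adjusted p of 0.392, without dKO replicate 1. With a replicate block it was 0 too, with 13 higher and 8 lower members at an unadjusted p under 0.05 and a share difference of 0.00182 percentage points (exact paired permutation p = 0.75), although the numbers do not pair the libraries. At an unadjusted p under 0.05 the members higher in the dKO libraries numbered 5 with DESeq2, 8 with at least 20 counts in every library and 9 to 24 with 1 library left out, and those lower 4 with DESeq2, 6 with the count filter, 7 with at least 50% coding bases and 4, without CTL replicate 3, to 20, without dKO replicate 1. The median log2 fold change stayed within -0.027 to 0.072, the ends being without dKO replicate 2 and replicate 1. The difference in the share of counts, 0.00182 percentage points, went from -0.00943 to 0.0169 with 1 library left out and was below 0 without CTL replicate 2 (-0.00855), dKO replicate 2 (-0.00943) or replicate 3 (-0.002), so its direction is not determined. The log2 ratio of coding-exon to intronic RPKM was 0.017, without dKO replicate 1, to 0.047, without CTL replicate 2, and 0.075 (exact permutation p = 0.0625) in members with at least 50% coding bases. With alternatives chosen after seeing the data it was 0.12 (exact permutation p = 0.031) with 36 bp added to the widths, -0.055 in CpG-rich intervals and -0.031 in the others as deposited, and the cause was not tested. The 8 members of smallest p kept their direction under every alternative run. They were chosen by p from these same libraries, so a kept direction is no independent test of them. With the count filter only Crlf2 and Rab6b of these could be run. Without dKO replicate 1 the log2 fold change of Kif1b went from -1.50 to -0.97 and that of Zfhx4 from -0.92 to -1.40, and without dKO replicate 3 Kif1b was at -2.17. Without the 17 members near a RefSeq TSS, or with 1 interval for each of 397 loci, counts past either threshold stayed within 1 member of the main ones. Depth limits single members, since only 306 of the 437 had at least 20 counts in every library.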
